A study of Homo sapiens with 4 samples.

Results

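Peaks of p53 ChIP-seq that lay far from protein-coding genes and outside the densest peak clusters made up 1342 of the 11431 peaks on chromosomes 1 to 22 and X in 4 libraries, which are 1340 of 11405 distinct intervals. The libraries came from H1299, an established human non-small-cell lung carcinoma line of genotype p53-/-, in which a p53 form was expressed. In 2 libraries it was CASM34, one of the cancer-associated synonymous mutations of the series title, and in 2 it was wild-type p53 (p53WT). All 4 shared the line, its genotype, the culture medium and the DO-1 p53 antibody. How each form was brought into the cells, and whether the cells had been damaged, is not given in the sources used here. Titles number the libraries 1 and 2 within each group, and nothing says that they came from separate cultures, so the spread that the tests below use may be technical.

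The peaks were selected on their own measured positions. The midpoint of a selected peak lay outside every RefSeq protein-coding gene of GRCh38 and over 100 kb from the nearest one. It also lay in a 1 Mb window with fewer than 10 distinct intervals in each of the 4 lists. Number, clustering and distance to protein-coding genes were therefore used in the choice and are given as a description. The other peaks were 3620 gene-distant ones in dense windows, meaning windows with at least 10 intervals in a list, and 6469 in or within 100 kb of a protein-coding gene. Dense windows numbered 54.

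p53 is a transcription factor that binds DNA as a tetramer. Its response element is a pair of decamer half-sites, and such elements occur in promoters and introns as well as in enhancers far from any gene. A synonymous mutation changes a codon without changing the amino acid it encodes, so both forms share the p53 amino acid sequence as far as the title goes. DO-1 recognises the N-terminal part of p53. The genome sequence around the peaks, and any annotation of repeats or centromeres, was not used here.

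Since most of the peaks lay far from any annotated start, the sequences that could be shown were the promoters they touched, taken from RefSeq on GRCh38.p14 (250 bases before to 50 after a start). Of 956 merged regions, 8 met a promoter. The rule keeps the peaks over 100 kb from protein-coding genes, so no promoter of such a gene could be met. All 8 promoters belonged to long non-coding RNA genes. The 3 promoters met in more than 1 library are printed here 5′ to 3′, with a p53 half-site match in capitals. FAM27E4 (chr9:61856455-61856754, plus strand) was met in all 4 libraries. LOC105374777 (chr2:64768148-64768447, minus strand) and LOC107986997 (chr9:40991782-40992081, minus strand) were met in CASM34 2 and p53WT 2.
FAM27E4: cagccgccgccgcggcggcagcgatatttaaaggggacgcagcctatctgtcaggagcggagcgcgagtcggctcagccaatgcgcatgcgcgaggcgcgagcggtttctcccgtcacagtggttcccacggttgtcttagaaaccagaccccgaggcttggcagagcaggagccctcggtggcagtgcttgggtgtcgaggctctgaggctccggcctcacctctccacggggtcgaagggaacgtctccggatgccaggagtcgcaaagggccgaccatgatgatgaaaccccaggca
LOC105374777: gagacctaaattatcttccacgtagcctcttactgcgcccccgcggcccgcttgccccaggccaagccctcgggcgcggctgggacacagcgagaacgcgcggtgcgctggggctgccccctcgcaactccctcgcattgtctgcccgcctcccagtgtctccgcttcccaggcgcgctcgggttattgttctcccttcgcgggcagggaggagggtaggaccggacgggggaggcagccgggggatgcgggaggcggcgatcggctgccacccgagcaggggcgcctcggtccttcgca
LOC107986997: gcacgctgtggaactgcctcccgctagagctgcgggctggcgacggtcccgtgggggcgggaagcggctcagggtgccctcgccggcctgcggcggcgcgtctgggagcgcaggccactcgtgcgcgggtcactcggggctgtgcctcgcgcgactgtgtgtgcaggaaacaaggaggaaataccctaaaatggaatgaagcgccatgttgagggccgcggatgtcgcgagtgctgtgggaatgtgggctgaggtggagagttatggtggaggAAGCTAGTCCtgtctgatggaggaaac
The p53 half-site consensus, read on both strands at once because it is its own reverse complement, was found in 1 of the 8 promoters. It was found in 2329 of all 35116 promoters in the table (6.63%). The match in LOC107986997 covers bases 274 to 283 of the printed sequence. It lay inside the CASM34 2 peak, 6 bp from that peak's summit, and outside the p53WT 2 peak, 190 bp from its summit. The match is a description of the letters and not a bound site. These promoters held 64.7% G and C in FAM27E4, 70.7% in LOC105374777 and 65.3% in LOC107986997, against a median of 58.7% over all promoters.

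At FAM27E4 the deposited fold, the authors' ratio of signal over background at a peak, was 9.53 and 8.80 in CASM34 1 and 2, and 10.0 and 9.77 in p53WT 1 and 2. The deposited −log10 q was 32.5 and 33.6 in the CASM34 libraries and 29.0 and 38.3 in the p53WT libraries. Both p53WT folds were above both CASM34 folds, while the −log10 q values overlapped. At LOC105374777 the −log10 q was 3.46 in CASM34 2 and 2.02 in p53WT 2, and at LOC107986997 it was 1.88 in CASM34 2 and 4.41 in p53WT 2. Neither library numbered 1 called them. A further promoter, that of LOC100287704, was met in CASM34 2 alone and is uncertain, because it differs from that of LOC100287834 at 1 of 300 bases.

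The number of these peaks overlapped between CASM34 and p53WT. There were 229 in CASM34 1 and 305 in CASM34 2, against 221 in p53WT 1 and 587 in p53WT 2. One p53WT library was thus below both CASM34 libraries and the other was above both. The mean was 267 ± 53.7 peaks in CASM34 and 404 ± 258.8 in p53WT (SD, n = 2 each), a difference of -137 with no test, since the rule uses the number. Within number 1 the difference was 8 peaks and within number 2 it was -282. It was 46 peaks without p53WT 2.

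As a share of each library's list the peaks were 13.5% of CASM34 1 (95% exact Clopper-Pearson interval 11.9 to 15.2) and 9.54% of CASM34 2 (8.55 to 10.6). They were 13.9% of p53WT 1 (12.2 to 15.7) and 11.9% of p53WT 2 (11.0 to 12.8). Intervals cover counting error only. The mean share was 11.5% ± 2.79 in CASM34 and 12.9% ± 1.43 in p53WT (SD, n = 2 each). The difference of -1.36 percentage points, which also has no test, was smaller than the SD of the CASM34 libraries. It was -0.40 within number 1 and -2.33 within number 2, and 0.61 without CASM34 2.

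The excess in p53WT 2 stood among weak peaks that no other library called. Of its 587 peaks, 426 met no peak of another library, and 75 met a peak in each of the other 3. In CASM34 1 these counts were 91 and 75, in CASM34 2 they were 152 and 76, and in p53WT 1 they were 93 and 76. The number called everywhere was thus nearly equal between libraries, as it must be for a shared set, while the number called alone was not. At a −log10 q of 5 or more the numbers were 129 in CASM34 1 and 113 in CASM34 2, against 111 in p53WT 1 and 113 in p53WT 2. At that strength the mean difference, CASM34 minus p53WT, was 9 peaks.

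**Figure D1:**
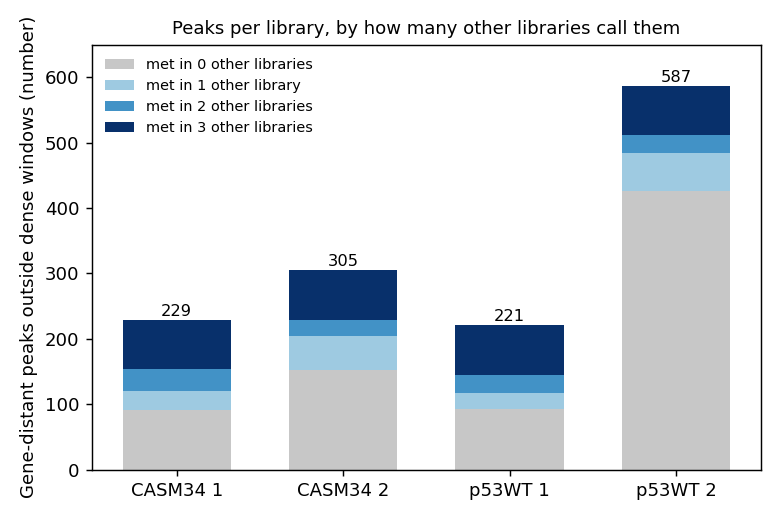
Number of gene-distant peaks outside dense windows in each library, on the vertical axis, divided by how many of the other 3 libraries have an overlapping peak (1 bp or more). The dark segments, 75 or 76 peaks, are nearly equal, while the grey segments of peaks met nowhere else run from 91 in CASM34 1 to 426 in p53WT 2.

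Strength and sharing went together within every library. In CASM34 1 the median −log10 q was 3.16 for the peaks met nowhere else and 18.3 for those met in all others. In CASM34 2 these medians were 2.57 and 18.0. In p53WT 1 they were 3.03 and 17.5, and in p53WT 2 they were 2.48 and 15.6. A −log10 q of at least 5 was reached by 20.9%, 9.21%, 17.2% and 4.93% of the peaks called alone, in the order CASM34 1, CASM34 2, p53WT 1, p53WT 2. It was reached by 90.7%, 90.8%, 88.2% and 86.7% of those called in every library. Widths followed, with medians of 197 to 209.5 bp for peaks called alone and 324 to 336 bp for those called in every library.

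The label of isolated peaks held only in part. Of 427 windows with such a peak, 235 (55.0%) held 1, and 166 of those 235 were a lone peak of p53WT 2. CASM34 2 gave 47, CASM34 1 gave 8 and p53WT 1 gave 14. At the other end, 33 windows with at least 10 of the peaks, counted over the 4 libraries, held 586 peaks (43.7%). The nearest peak of the same library lay within 10 kb for 29.3% of the peaks in CASM34 1, 23.9% in CASM34 2, 28.1% in p53WT 1 and 12.1% in p53WT 2. The median gap to it was 48.6, 153.3, 62.3 and 137.3 kb in that order.

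The window with the most peaks was on chromosome 16 from 46 to 47 Mb, with 29. It held 7 merged regions, and all 7 were called in each of the 4 libraries. Next came windows with 26 peaks on chromosomes 11 (54 to 55 Mb) and 17 (24 to 25 Mb), and windows with 25 on chromosomes 1 (121 to 122 and 125 to 126 Mb), 10 (42 to 43 Mb) and 6 (58 to 59 Mb). Having many peaks did not mean having the same ones. Of the 7 regions at 125 to 126 Mb of chromosome 1, 6 were called in all 4 libraries, while of the 20 regions at 27 to 28 Mb of chromosome 20 and the 18 at 92 to 93 Mb of chromosome 2 there were 0.

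Merged over libraries, the peaks formed 956 regions of the 7727 in the series, where peaks that overlap by at least 1 bp form 1 region. All 4 libraries called 74 of them (7.74%, 95% exact interval 6.13 to 9.62), close to the 8.27% over all regions. The share was 24.0% (21.97 to 26.1) in the gene-distant regions of dense windows and 3.16% (2.70 to 3.68) in regions near genes. A single library called 762 (79.7%), against a background of 74.1%, 45.8% in dense windows and 82.4% near genes. Of the 762, p53WT 2 held 426.

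Few regions followed the p53 form. Both CASM34 libraries and neither p53WT library called 9 regions (0.941%, 0.431 to 1.78), where the background was 0.789%. Both p53WT libraries and neither CASM34 library called 9 as well (0.941%), where the background was 1.11%. The 2 libraries numbered 2 alone called 37 (3.87%, 2.74 to 5.30) against a background of 7.62%, and the 2 numbered 1 alone called 9 (0.941%) against 1.33%. With 2 libraries a group these are counts with no test, and more regions were shared by number 2 across the groups than within either group. The libraries numbered 2 also had the longest lists, with 3196 peaks in CASM34 2 and 4946 in p53WT 2. CASM34 1 had 1698 and p53WT 1 had 1591. Longer lists can share more regions, and the part of list length was not tested.

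Of the 9 CASM34-specific regions, the 5 best ranked in both lists were weak to moderate. The first, chr1:121860420-121860599, had a −log10 q of 10.3 in CASM34 1 and 6.31 in CASM34 2. Another 2 lay in the same window, at chr1:121743338-121743689 (8.33 and 5.19) and chr1:121765797-121765994 (4.24 and 7.69). The rest were chr16:37376632-37376822 (8.21 and 5.45) and chr2:92340187-92340460 (15.2 and 3.46). The nearest protein-coding genes lay 280.4 to 2986.9 kb away. For the 3 on chromosome 1 it was LINC02798, which the table lists as protein-coding despite its name.

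The 5 best-ranked p53WT-specific regions were of like strength. The first, chr16:37749975-37750163, had a −log10 q of 13.96 in p53WT 1 and 5.79 in p53WT 2, and lay on the same chromosome as a CASM34-specific one named above. The next was chr11:54134726-54134946 (10.1 and 3.73), 468.2 kb from OR4C46, an olfactory receptor gene. Then came chr4:50699495-50699760 (6.396 and 4.21), chr4:50336236-50336715 (4.14 and 4.33) and chr17:22913548-22913942 (10.1 and 1.91). Where the chromosome had a dense window, the median distance to it was 0.26 Mb for 7 CASM34-specific and 0.37 Mb for 9 p53WT-specific regions. Other sets called in several libraries differed. The median was 0.25 Mb for 6 regions of number 1 alone and 3.21 Mb for 30 of number 2 alone. It was 0.39 Mb for 31 regions called in 3 libraries and 0.82 Mb for 68 called in 4. For 561 regions called in 1 library it was 9.74 Mb, and this differed by library. It was 0.50 and 0.70 Mb for CASM34 1 and p53WT 1, and 12.6 and 13.2 Mb for CASM34 2 and p53WT 2.

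The regions called in all 4 libraries held the strongest peaks. The 6 best ranked across the lists were 4 on chromosome 16 and 1 each on chromosomes 1 and 10. The region chr16:46398554-46401594, 178.5 kb from SHCBP1, whose product binds the adaptor SHC1, was the best-ranked member in each of the 4 lists. Its −log10 q was 281 and 268 in CASM34 1 and 2, and 308 and 232 in p53WT 1 and 2. Its fold was only 5.66 and 6.23 in the CASM34 libraries and 6.20 and 6.25 in the p53WT libraries, and the merged region was 3041 bp wide. In both measures the values of the groups overlapped.

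The other 3 of chromosome 16 lay beside it. They were chr16:46387696-46388282, chr16:46389650-46391205 and chr16:46394454-46395087, with folds of 3.57 to 4.06 over the 4 libraries. The region chr1:125179582-125180681 had a −log10 q of 224 and 169 in the CASM34 libraries and 233 and 160 in the p53WT libraries, with folds of 6.72 to 7.32. The region chr10:39967493-39967718, far narrower and 1817.3 kb from ZNF37A, had the highest fold of these 6, 28.1 and 29.2 in the CASM34 libraries and 27.0 and 27.96 in the p53WT libraries. In this region the groups did not overlap, while at chr1:125179582-125180681 they did.

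Over the 74 regions called in all 4 libraries, the groups' deposited values separated in a minority, at shares near the background. Both CASM34 folds were above both p53WT folds in 12 (16.2%), against 18.6% of the 639 such regions of the whole series. Both p53WT folds were above both CASM34 folds in 7 (9.46%), against 10.5%. For −log10 q the counts were 11 (14.9%, background 17.2%) and 6 (8.11%, background 7.04%). Each fold comes from a list of its own depth, which is unknown, so these are descriptions and not differences in binding.

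**Figure D2:**
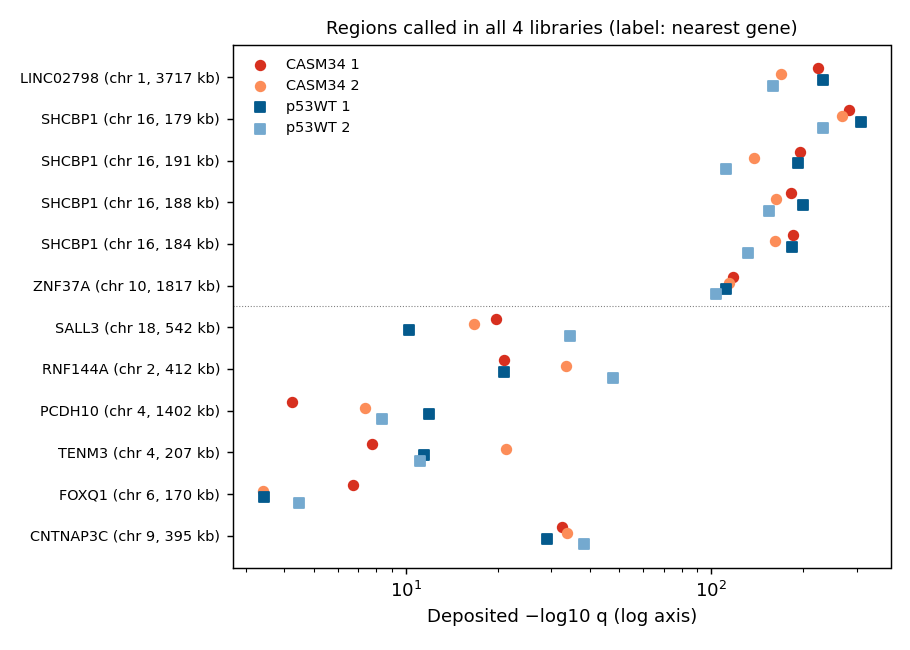
Deposited −log10 q (log axis) of 12 regions called in all 4 libraries, named by the nearest protein-coding gene with its chromosome and distance in kb. Circles are CASM34 libraries and squares p53WT libraries, and the 6 regions above the dotted line are the best ranked while the 6 below were picked among those over 5 Mb from any dense window or on a chromosome without one. The ranges of the groups overlap except at ZNF37A, where both CASM34 values are higher, and at PCDH10, where both p53WT values are higher. At TENM3 the CASM34 1 value is from a peak that does not meet those valued in CASM34 2 and p53WT 1.

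Many of the regions lay beside the dense windows. Of the 956, 232 were within 1 Mb of one, and 35 of these (15.1%) were called in all 4 libraries. The share was 11 of 121 (9.09%) at 1 to 5 Mb, 22 of 373 (5.90%) beyond 5 Mb and 6 of 230 (2.61%) on chromosomes with no dense window. Leaving out every region within 5 Mb of a dense window kept 603. All 4 libraries called 28 of these (4.64%), 3 were CASM34-specific and 2 p53WT-specific. Of these 603, 529 (87.7%) were called in 1 library, and p53WT 2 alone called 316.

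**Figure D3:**
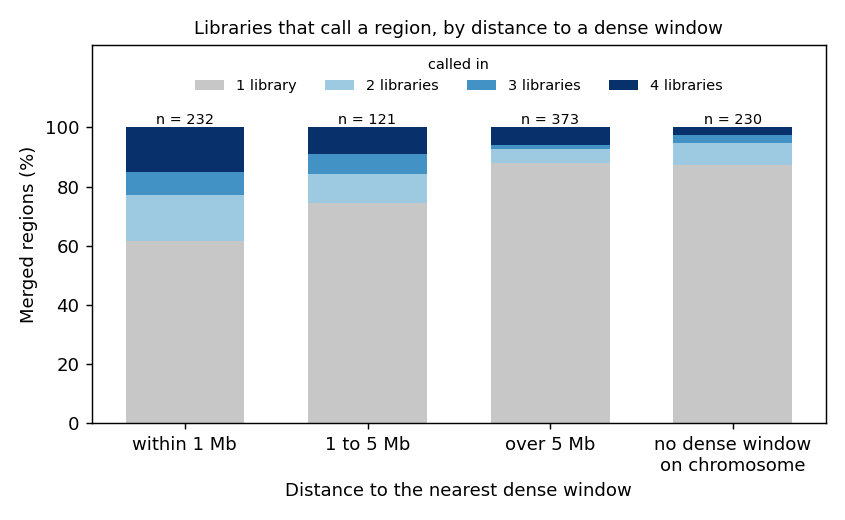
Share of merged regions (%, vertical axis) called in 1, 2, 3 or all 4 libraries, by distance of the region to the nearest dense window. The dark top segment, regions of all 4 libraries, falls from 15.1% within 1 Mb to 2.61% on chromosomes without a dense window.

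Of these 28 regions, 7 were those of chromosome 16 near SHCBP1, over 11 Mb from a dense window. Others named here were picked with their values in view. The strongest by −log10 q outside chromosomes 9 and 16 was chr2:7488480-7489227, 412.5 kb from RNF144A, an E3 ubiquitin ligase gene. Its fold was 11.0 and 15.0 in CASM34 1 and 2, and 12.1 and 18.1 in p53WT 1 and 2. The next was chr18:78437531-78438107, 542.0 kb from SALL3, a zinc finger transcription factor gene, with folds of 11.7 and 9.94 in the CASM34 libraries and 8.54 and 15.2 in the p53WT libraries. In both the spread between the p53WT libraries was wider than the distance between the groups.

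Another 3 regions of this set show the range of patterns. One lay 207.1 kb from TENM3, a teneurin of neuronal wiring, with a −log10 q of 7.74 and 21.3 in the CASM34 libraries and 11.5 and 11.1 in the p53WT libraries. Each library had 2 peaks in this merged region. The CASM34 1 value is that of chr4:181239847-181240396, which does not meet the peaks valued in CASM34 2 and p53WT 1, so these values are not of the same site. One lay 1401.8 kb from PCDH10, a protocadherin gene, with 4.25 and 7.38 in the CASM34 libraries and 11.9 and 8.40 in the p53WT libraries. Here both p53WT values were above both CASM34 values, which 2 libraries a group cannot set apart from the spread. One lay 170.0 kb from FOXQ1, a forkhead factor gene, inside the non-coding gene LOC124905339, with 6.72 and 3.41 in the CASM34 libraries and 3.45 and 4.47 in the p53WT libraries. The nearest gene is a landmark and not a target.

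The share of known p53 targets among the neighbours was near the background. Of 58 direct target genes on a list made from general knowledge of p53, 1 (1.72%) was the nearest protein-coding gene of a region, and of all 19974 protein-coding genes 416 (2.08%) were. This was BTG1, an anti-proliferative gene, 216.0 kb from chr12:91924127-91924463, which p53WT 2 alone called with a fold of 5.20 and a −log10 q of 3.86. Of 16 long RNA genes linked to p53, 15 were in the table and 0 lay within 10 kb of a region, where 1.04% of all non-coding genes did.

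Many regions shared by the libraries numbered 2 alone lay at non-coding genes. Of the 37, 22 (59.5%) lay inside or within 10 kb of a non-coding gene, while of the 9 shared by number 1 alone 0 did, and over all 956 the share was 33.2%. The best ranked was chr20:29497418-29497982, 0.366 kb from FRG1EP, with a −log10 q of 7.38 in CASM34 2 and 9.24 in p53WT 2. Next were chr8:110189206-110189763, 213.7 kb from the potassium channel gene KCNV1 (8.78 in CASM34 2 and 4.43 in p53WT 2), and chr11:134737259-134737579 inside LINC02714 (5.76 and 4.20). Also in this set, and picked with their values in view, were a region inside HEY2-AS1, beside the Notch target gene HEY2 (3.99 in CASM34 2 and 4.70 in p53WT 2), and one inside DANT2 (5.19 and 8.98).

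Of the 9 regions of number 1 alone, the best ranked was chr17:24748170-24748392, with a −log10 q of 19.3 in CASM34 1 and 19.9 in p53WT 1. Then came chr3:93712358-93712688, 160.5 kb from PROS1, the protein S gene (14.8 in CASM34 1 and 11.8 in p53WT 1), and by chr2:93189831-93190031 (6.58 and 6.96). These sets are defined by the library number, so their link to it is given by the choice, and its part in them was not tested.

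The share of peaks with a non-coding gene as neighbour also differed between the library numbers. Inside or within 10 kb of a non-coding gene lay 35 peaks (15.3%) of CASM34 1 and 109 (35.7%) of CASM34 2, against 31 (14.03%) of p53WT 1 and 223 (38.0%) of p53WT 2. The shares of both groups overlapped, and the libraries of a number were alike. Those numbered 2 also had the longer lists, so number and list length cannot be told apart here. Gene-distant peaks in dense windows had 2.18%, 4.97%, 1.84% and 4.38% in the same order. The selected peaks were higher in 4 of 4 libraries, by a mean of 22.4 percentage points (SD 11.4, n = 4, exact two-sided sign-flip permutation p = 0.125, the smallest possible, and 0.188 after Benjamini-Hochberg adjustment over 9 tests). Peaks near protein-coding genes had 47.5% to 48.8%. Gene-distant peaks in dense windows lay a median of 1555.9 to 1637.9 kb from a protein-coding gene in the 4 libraries. The selected peaks lay a median of 378.0 to 846.9 kb away. Gene distance and peak density, which the rule uses, move with the difference from dense windows, and their part was not tested.

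By kind of gene, 226 peaks lay inside a non-coding gene. Of these 163 lay in long non-coding RNA genes, 29 in pseudogenes and 28 in transcribed pseudogenes. The genes with the most regions were IGK, the immunoglobulin kappa locus, LOC105374524 and LOC105377862, with 3 each, and none of those regions was called in more than 2 libraries. LINC00537 held 2 regions, 1 of which all 4 libraries called.

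Sharing set the selected peaks apart from those in dense windows in each library. Met in at least 1 other library were 60.3% of the selected peaks of CASM34 1 and 50.2% of CASM34 2, against 57.9% of p53WT 1 and 27.4% of p53WT 2. In dense windows the shares were 74.9% and 85.1% in the CASM34 libraries and 77.6% and 78.9% in the p53WT libraries. The difference was negative in 4 of 4 libraries, with a mean of -30.2 percentage points (SD 16.6, exact two-sided sign-flip permutation p = 0.125, adjusted 0.188). Its size depended on the processing, from -44.4 with a limit of 5 intervals in a window to -7.22 at a −log10 q of 5 or more. It was -17.3 at 3 or more and -18.8 with lists of equal length. Of peaks near genes, 66.7% and 38.8% were met in the CASM34 libraries and 72.4% and 24.6% in the p53WT libraries. Against these the difference was -1.69 points and positive in 2 of 4 (exact two-sided sign-flip permutation p = 0.75). This difference turned with the processing, being -18.4 with a limit of 5 intervals in a window and 7.91 with a limit of 20. Peak density, which the rule uses, moves with the first difference, and its part was not tested.

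Within their own lists the selected peaks ranked between the other classes. Their median rank percentile by −log10 p, where 100 is the strongest, was 40.1 and 51.6 in CASM34 1 and 2, and 34.0 and 48.4 in p53WT 1 and 2. Gene-distant peaks in dense windows had 59.1 and 81.8 in the CASM34 libraries and 58.9 and 85.2 in the p53WT libraries, and peaks near genes had 29.3 and 39.5, and 32.3 and 42.8. The selected peaks were lower than the first by 27.7 points on average and higher than the second by 7.54, each in 4 of 4 libraries (exact two-sided sign-flip permutation p = 0.125 for both, adjusted 0.188). The first difference shrank to -7.60 at a −log10 q of 5 or more. The second difference was 1.07 without the peaks next to a dense window, and it turned to -2.93 when all peaks within 5 Mb of a dense window were left out. Those peaks had median ranks of 54.0, 66.4, 44.4 and 65.5, in the order CASM34 1, CASM34 2, p53WT 1, p53WT 2, and the peaks farther away had 28.7, 40.9, 22.8 and 39.1.

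**Figure D4:**
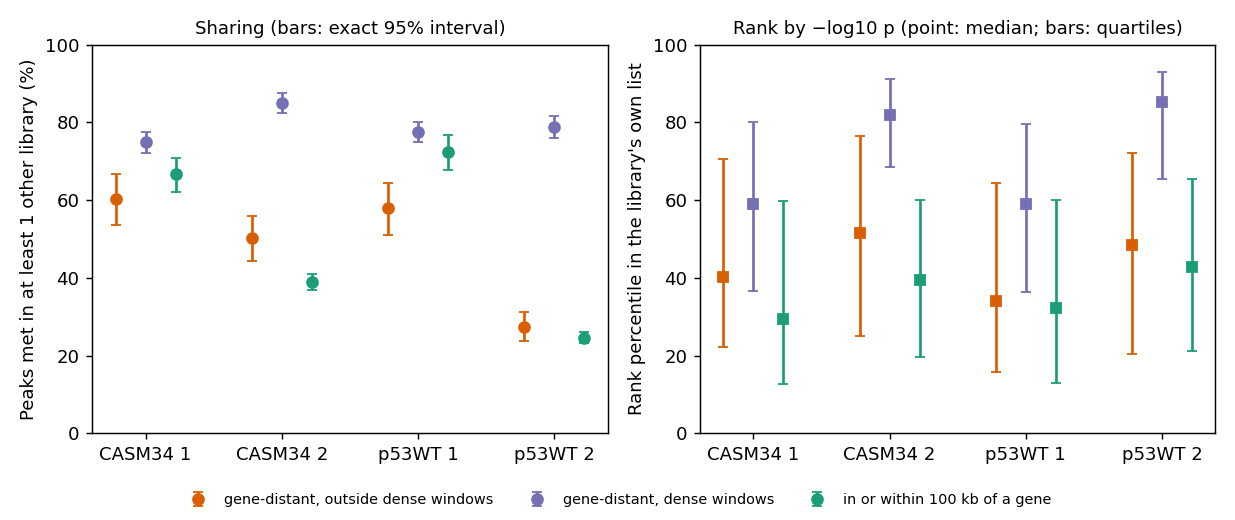
Left, share of peaks met in at least 1 other library (%, bars are exact 95% intervals), and right, median rank percentile within the library's own list (bars are quartiles), for 3 classes of peaks in each library. The selected peaks (orange) are below gene-distant peaks of dense windows (purple) in all 4 libraries on both measures, and above peaks near genes (green) on rank only.

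In width the classes differed little. Median widths of the selected peaks were 241 and 235 bp in CASM34 1 and 2, and 228 and 214 bp in p53WT 1 and 2. They were wider than peaks in dense windows by 8.5 bp on average and narrower than peaks near genes by 14 bp (differences of 8.5 and -14, exact two-sided sign-flip permutation p = 0.125 each, adjusted 0.188).

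The chromosomes with many peaks differed between libraries. Chromosome 9 had 21 and 37 in CASM34 1 and 2 and 23 and 51 in p53WT 1 and 2, and chromosome 2 had 21 and 22 in the CASM34 libraries and 12 and 52 in the p53WT libraries. Chromosome 8 had 8 and 33 in the CASM34 libraries and 12 and 67 in the p53WT libraries, and chromosome 6 had 15 and 29, and 13 and 59. On chromosomes 12 and 14 the numbered 1 libraries held at most 1 peak, while CASM34 2 and p53WT 2 held 7 and 21 on chromosome 12 and 4 and 8 on chromosome 14. The median distance to a protein-coding gene was 800.3 and 429.6 kb in the CASM34 libraries and 846.9 and 378.0 kb in the p53WT libraries. The farthest regions were 3 on chromosome 22, 4786.7, 4460.7 and 4369.6 kb from OR11H1, each called in 1 library.

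Just inside the 100 kb limit were peaks 100.027 kb (p53WT 1) and 100.031 kb (p53WT 2) from FOXD4L5, a copy of a forkhead gene, with a −log10 q of 9.16 and 11.7. Just outside it were peaks 99.849 kb from PPDPFL in p53WT 2 (1.45) and 99.814 kb from FAM110B in p53WT 1 (3.16). Windows with 9 intervals in the fullest list, just inside the other limit, numbered 2, and windows with 10, just outside it, numbered 6.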

How the data were processed

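Peak lists of 4 p53 ChIP-seq libraries were analysed. Per the submitters' processing notes, Trim Galore, Bowtie2 and bedtools were used on GRCh38. The caller, its control and its threshold are not stated there. DNA was fragmented by micrococcal nuclease and sonication before DO-1 precipitation, per the labels. The lists are per library, not pooled. Each deposited peak has a score, a fold (the authors' ratio of signal over background), a deposited −log10 p-value and a deposited −log10 q-value, whose lowest value, 1.31, equals a q of 0.05. These values were the authors'. Ranks were taken within 1 list at a time. Folds and −log10 q were also set side by side between lists, and limits on −log10 q were put on all lists alike. Those comparisons depend on the depth of each list and are descriptions. No read counts are given, so depth is unknown, and a missing peak does not show absent binding. Columns mapped to no sample were 0.

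Repeated intervals were counted once, with the highest −log10 p. Distances ran from the midpoint to 19974 protein-coding and 39124 non-coding genes of a RefSeq table of GRCh38.p14; strand, exons and introns were not separated for peaks. Python 3.11.15, numpy 2.4.6, pandas 2.3.3, scipy 1.17.1 and matplotlib 3.10.9 were used. Classes were compared within libraries by exact two-sided sign-flip permutation over 4 libraries. Benjamini-Hochberg adjustment covered 9 tests, of which 2, exact permutations of number and share between groups, are not reported because the rule uses those values. On simulated peaks, 240 of 240 planted regions were recovered. They were placed clear of the distance and window limits, so this checks the code and not the data. Alternatives were thresholds on q, list length, gene distance, peak position (summit), window limit and placement, overlap, replicates left out and a replicate block; leaving out members beside dense windows was added after seeing the data. The members, the gene lists and the tests were chosen with earlier results of these data known. Named regions are those of a rule on the lowest rank over the libraries that call them, as given with each set; others are marked as picked with their values in view.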

Additional observations from a re-analysis of the deposited data

How the results depend on the processing

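Lower sharing and rank than in dense windows, narrower width than near genes and the excess of non-coding neighbours kept their direction under all alternatives run. Of 187 values, 151 were labelled the same, though not always in size, 23 moved and 13 reversed. The 23 were all region counts, 9 CASM34-specific, 10 p53WT-specific and 4 of all libraries. Such counts have no direction or p, so their label is about size. The smallest possible p over 4 libraries was 0.125, so the labels do not show that a test result held. With the summit in place of the midpoint every value equalled the main one. With a −log10 q of at least 3 the sharing difference from peaks near genes was 6.02 and p53WT-specific regions numbered 5. At 5 or more the number difference was 9, the share difference 0.77, that sharing difference 8.005, and CASM34-specific and p53WT-specific regions 5 and 1. With lists of equal length (1591) the sharing difference was 8.01 and p53WT-specific regions 5. With fewer than 5 intervals in a window the rank difference from peaks near genes was -4.15, the width difference from dense windows -5.25, and CASM34-specific, p53WT-specific and all-library regions 2, 3 and 14. The sharing difference from peaks near genes was then -18.4. With fewer than 20 the sharing difference was 7.91 and those regions 22, 17 and 173. Leaving out members next to a dense window gave 4, 3 and 39, a rank difference of 1.07 and a sharing difference of -8.71 from peaks near genes. Leaving out those within 5 Mb gave 3, 2 and 28 and a rank difference of -2.93 and a sharing difference of -13.7. The cause was not tested.

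Leaving out 1 library in turn gave differences of -320 to 46 in number, -3.34 to 0.61 in share, -31.9 to -24.8 and -2.62 to 2.25 in sharing (dense, near), -30.7 to -24.7 and 6.04 to 9.48 in rank, 5.33 to 10.3 and -18 to -9.33 bp in width, and 18.7 to 25.8 for non-coding neighbours. CASM34-specific regions ranged from 19 to 161, p53WT-specific from 13 to 435 and regions in all 3 remaining libraries from 78 to 87; with 1 library in a group, specific means called there alone. The replicate block left the differences at -137 and -1.36, which it cannot change when each group has 1 library of each number. Same-numbered libraries are not paired by the labels. Their correlation was -0.018 over the 956 regions. These regions were each called in at least 1 library, and 762 in only 1, so the value cannot show whether such libraries are paired. Depth is unknown, so a region called in 1 library may lie under the threshold in others.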
